A study of Mus musculus with 12 samples.

Results

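The genes described here are 10 genes of major histocompatibility complex (MHC) class I peptide loading, measured in Min6, a mouse insulinoma line that serves as a model of insulin-making beta cells. They are Tap1, Tap2, Tapbp, B2m, Psmb8, Psmb9, Psmb10, Erap1, Nlrc5 and Irf1, listed by name, though with earlier results of these data known. A member's probe sets (rows) are those whose platform annotation gives exactly 1 symbol, equal to the member, which left 29 of 35556 rows. Of these, 19 belong to Nlrc5, 2 to Irf1 and 1 to each of the other 8 genes. Another 2 rows name Tapbp beside a ribosomal protein gene and were left out.

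Min6 cells had been grown for 3 periods of 5 days, and 4 arrays of total RNA represent each of 3 culture schedules. The classic condition (CC) kept cells in DMEM with 2-mercaptoethanol and 15% fetal calf serum at 20% oxygen. In the defined condition (DC), the last 10 days were serum-free at 5% oxygen, in DMEM-F12 with apo-transferrin, progesterone, putrescine and selenite. In the return condition (RC), the middle 5 days were serum-free at 5% oxygen, and serum and 20% oxygen came back for the last 5. All groups share the line, the initial days in serum and the antibiotics, and the quadruplicates come from a single experiment, so p-values measure the spread between these cultures. Serum, oxygen, basal medium and supplements changed together and cannot be told apart, and RC differs from DC also in the length of the serum-free time. In RNA of whole cultures, fewer cells with a transcript and less of it per cell cannot be told apart.

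Class I molecules show peptides from inside the cell to CD8 T cells, and in beta cells this display is known for its place in autoimmune diabetes. The immunoproteasome subunits Psmb8, Psmb9 and Psmb10 take the places of the constitutive subunits Psmb5, Psmb6 and Psmb7 and cut proteins into peptides. The Tap1 and Tap2 proteins form a pump that carries these peptides into the endoplasmic reticulum. There Erap1 trims them, and tapasin, the product of Tapbp, holds the pump and an empty class I molecule together until a peptide fits. A class I molecule is a heavy chain paired with beta-2-microglobulin, the product of B2m. Irf1 and Nlrc5 encode transcription factors that switch these genes on, above all after interferon gamma.

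Tap1 and Psmb9 lie head to head on chromosome 17, and the 225 bases between their start sites serve as a promoter for both. The stretch is shown because the neighbours read differently across the conditions. It is chr17:34187331-34187555 on the plus strand of GRCm38.p6 (RefSeq), 61.3% G and C, running from the Psmb9 start to the Tap1 start. Capitals mark a CCAAT box (CCAAT) and the beginning of a cyclic AMP response element (TGACG).
Psmb9 to Tap1: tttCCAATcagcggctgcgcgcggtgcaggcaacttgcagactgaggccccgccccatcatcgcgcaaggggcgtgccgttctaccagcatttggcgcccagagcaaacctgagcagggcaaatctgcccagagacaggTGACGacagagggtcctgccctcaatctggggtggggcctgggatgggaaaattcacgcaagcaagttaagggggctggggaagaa

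RefSeq promoter windows, 250 bases before to 50 after a start site, were matched by symbol for 8 of the 10 genes (9 windows). Besides both motifs above, an interferon-stimulated response element (ISRE, GAAA and GAAA with any 2 bases between), an interferon gamma activated site (GAS, TTCNNNGAA) and the hypoxia response core (ACGTG) were searched on both strands. Matches to the interferon motifs are shown because interferon is the best known inducer of these genes, each with up to 8 flanking bases and the motif in capitals.
B2m, ISRE: aagaacatGAAACTGAAAatgggaaa
Erap1, ISRE on the opposite strand: accttcacTTTCACTTTCggtcccgg
Irf1, GAS: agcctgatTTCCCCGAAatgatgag
Psmb8, GAS: ctccgctgTTCCCAGAAgatgcccc

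The ISRE match of Erap1 (chr13:74639849-74639858) starts 4 bases before the start site and that of B2m (chr2:122147548-122147557) 139 before. Both are printed as the plus strand of GRCm38.p6 reads, where the B2m match lies on that strand and the Erap1 match on the minus strand. The GAS matches are at chr11:53769924-53769932 for Irf1 and chr17:34198098-34198106 for Psmb8, 90 and 97 bases before their start sites. Of all 32851 windows, 3.44% hold an ISRE match and 8.3% a GAS match. TGACG was found in B2m, Psmb9 and Tap1 (20.8% of all windows) and CCAAT in those 3, Irf1 and Tapbp (37.4%). ACGTG, present in 19.6% of all windows, was found in Erap1 and Psmb10, where 1 palindromic site in each matches on both strands, and Erap1 holds a further match. A match describes the letters only, and no match says only that they are not in this window.

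On the log2 scale the median of an array was 7.92 to 8.05. The interquartile range ran from 2.42 to 2.75, and RC 3, DC 4 and DC 2 had the narrowest. Of 10 beta cell markers, 9 lay above the median of all values (7.99), up to Iapp at 13.82, while the glucose transporter gene Slc2a2 lay at 7.80, and 2 of them passed limma's test in DC against CC, 2 in RC against DC and none in RC against CC (4, 4 and 0 at an unadjusted p under 0.05). Markers of immune cells (8 measured), fibroblasts (8) and endothelium (6) had median levels of 6.73, 7.83 and 7.08. In the same order 2, 4 and 0 of them lay above the median of all values, with Col1a1 the brightest fibroblast marker at 8.76. None of these 22 passed in any comparison, with at most 2 of a list at an unadjusted p under 0.05. The mean level of the immune list was 7.06 to 7.21 in CC, 7.24 to 7.30 in DC and 7.14 to 7.43 in RC, and its part in the results below was not tested. Cd68, a lysosomal protein of macrophages that other cells also make, was the brightest of them at 9.81.

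Of the 10 genes, Erap1 and Tap1 fell in DC against CC, none rose and 8 did not pass (limma, adjusted p under 0.05 over all rows). Over all rows, 4.32% fell and 2.31% rose. The same genes were lower in RC against CC, again with none higher, where 0.675% of all rows were lower and 0.121% higher. No member passed in RC against DC, with 1 of the 29 rows, that of Tap1, at an unadjusted p under 0.05, where 1.18% of all rows were lower and 1.45% higher. The median log2 difference of the 10 genes, taking the brightest row of each, was 0.03 in DC against CC, beside 0.045 over all rows. It was -0.07 in RC against DC (all rows -0.013) and 0.02 in RC against CC (0.034). The comparisons with CC share the CC arrays, so the repeat of both names is not independent.

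**Figure D1:**
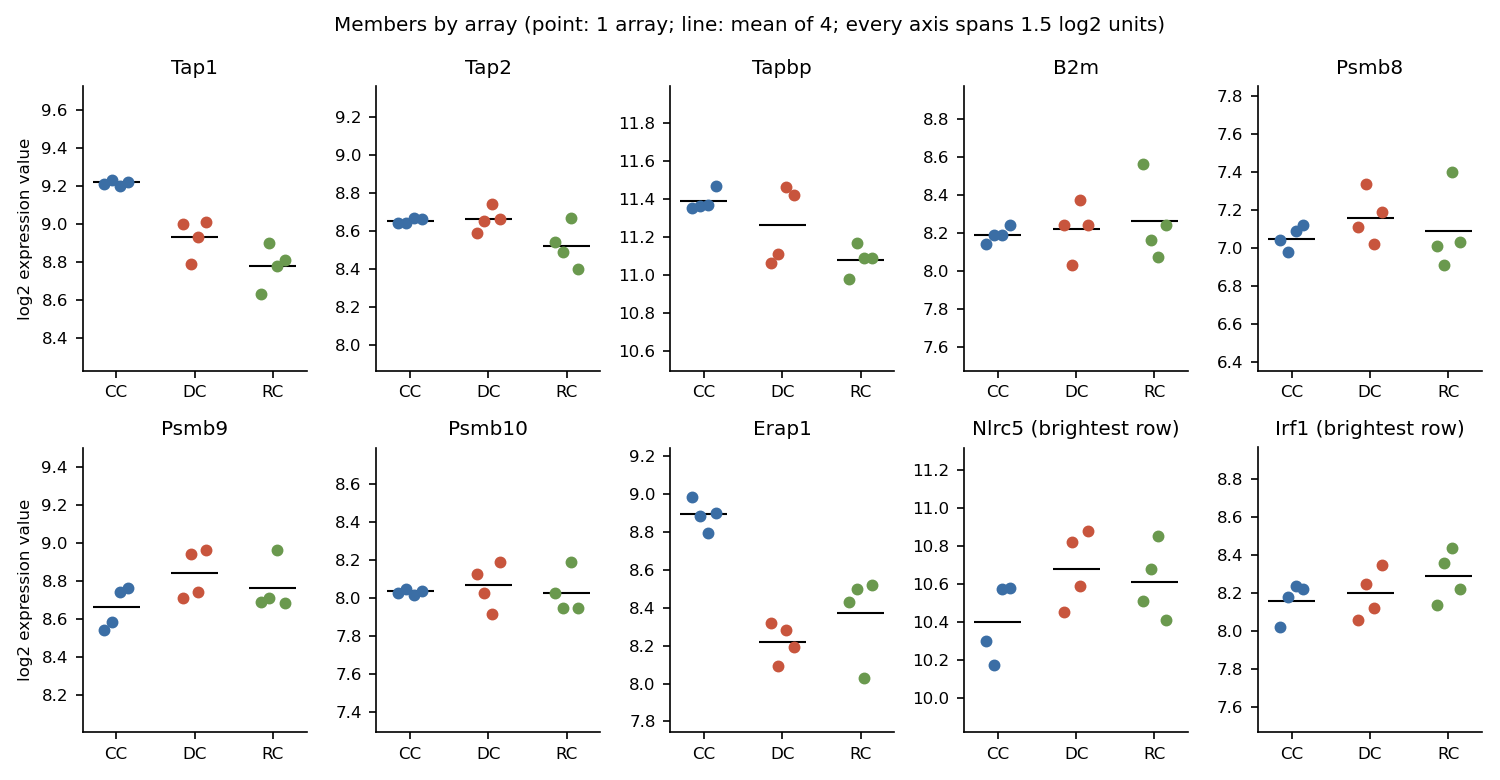
Log2 expression value of each member on each of the 12 arrays (points), by culture condition, with the mean of 4 arrays as a line; Nlrc5 and Irf1 are shown by their brightest row, and every axis spans 1.5 log2 units. Tap1 and Erap1 have all DC and RC arrays below all CC arrays, whereas B2m and Psmb10 have the conditions on top of each other.

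Erap1, the peptidase that trims peptides in the endoplasmic reticulum, showed the largest difference of the 10. Its probe set (10406205) read 8.98, 8.88, 8.79 and 8.90 on CC arrays 1 to 4, 8.32, 8.09, 8.28 and 8.19 on the DC arrays and 8.43, 8.50, 8.03 and 8.52 on the RC arrays. Every DC and RC array lay below every CC array, and RC 3 alone lay below all DC arrays. Non-overlap in this direction was found in 7.96% of all rows for DC against CC and in 5.45% for RC against CC. On the log2 scale Erap1 fell by 0.67 ± 0.10 in DC (1.59-fold, SE over 4 arrays a group; limma adjusted p = 0.00155), and its call held under all 22 alternatives (adjusted p from 3.01e-05 to 0.00767).

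After the return Erap1 was still 0.51 below CC on the log2 scale (difference -0.51 ± 0.10; 1.43-fold; limma adjusted p = 0.0415), which is 77.3% of the difference between DC and CC. The call is close to the threshold. It ended without CC 1, CC 2, CC 3 or CC 4 (adjusted p = 0.143, 0.103, 0.101 and 0.135), without DC 2 or DC 3 (0.0533 and 0.052) and without RC 1, RC 2 or RC 4 (0.114, 0.0899 and 0.0531), as well as with quantile normalization (0.0512) and with CC and RC fitted alone (0.0754). The difference itself stayed between -0.57 and -0.39 under all alternatives. Between RC and DC, Erap1 differed by 0.15 with a 95% interval of -0.07 to 0.37 (limma adjusted p = 0.677). Without RC 3 the RC mean was 8.49, and Erap1 was higher in RC than in DC by 0.26 (limma adjusted p = 0.0389). With array weights, which can count an array for less, it was higher by 0.28 (limma adjusted p = 0.0191). How far RC 3 was counted there is not reported, so the fit need not be a check separate from leaving RC 3 out.

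Tap1, the pump subunit, was the steadiest member in CC, at 9.21, 9.23, 9.20 and 9.22. The DC arrays read 9.0, 8.79, 8.93 and 9.01 and the RC arrays 8.63, 8.90, 8.78 and 8.81, all below the CC arrays. On the log2 scale Tap1 fell by 0.29 ± 0.07 in DC (1.22-fold; limma adjusted p = 0.0247) and was lower in RC by 0.43 ± 0.07 (difference -0.43; 1.35-fold; limma adjusted p = 0.0152). RC lay 0.15 below DC (difference -0.15, 95% interval -0.30 to -0.00), with overlapping arrays and a limma adjusted p = 0.422. The RC mean thus stood at 152% of the difference between DC and CC, farther from CC than the DC mean, though RC and DC were not told apart over all rows.

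The DC call of Tap1 ended when CC 1, CC 2, CC 3, CC 4, DC 2 or DC 3 was left out (adjusted p = 0.067, 0.067, 0.0576, 0.0638, 0.0853 and 0.0572), with quantile normalization (0.0516) and without the 3 arrays of narrowest spread (0.0953). The RC call ended without CC 1, CC 2, CC 3, CC 4 or RC 1 (0.0547, 0.0501, 0.0602, 0.065 and 0.0564). The difference stayed within -0.34 to -0.24 for DC and -0.48 to -0.38 for RC.

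**Figure D2:**
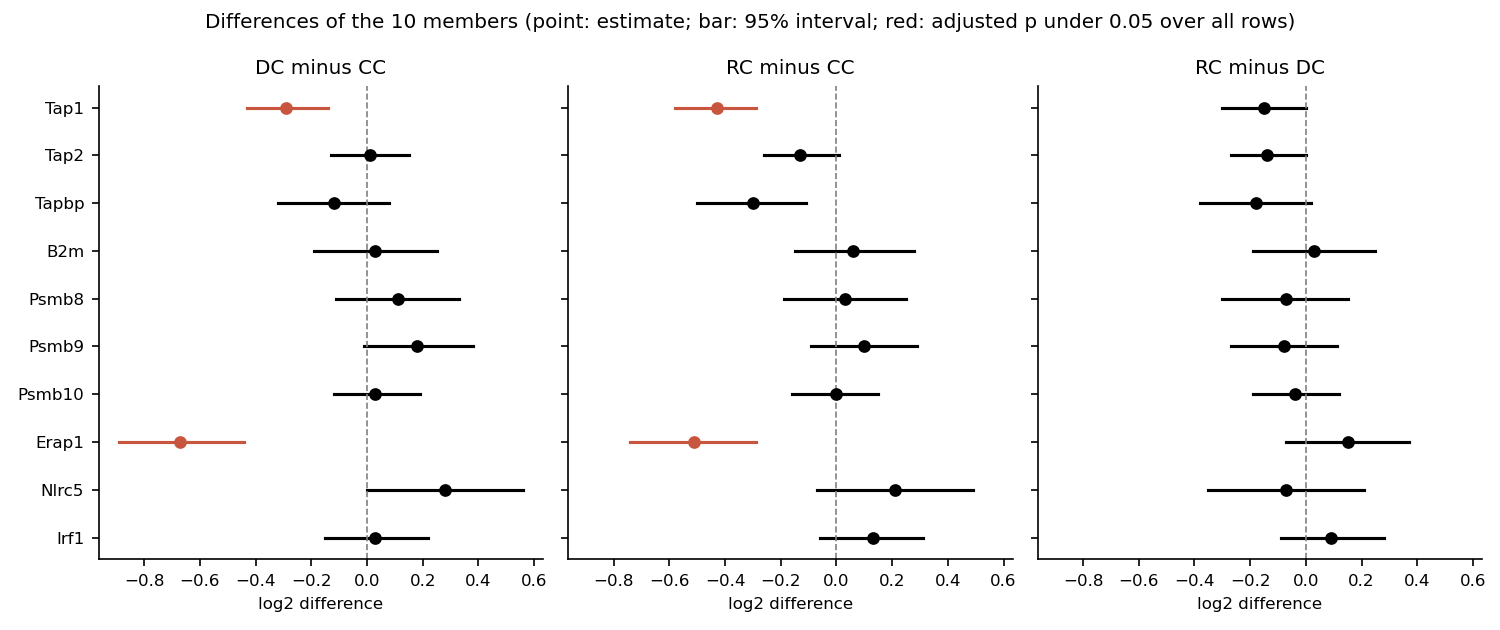
Log2 difference of each member between culture conditions (point) with its 95% interval from the limma fit (bar), in red where the adjusted p over all rows was under 0.05. Erap1 and Tap1 stand to the left of 0 against CC in both DC and RC, and no member is red for RC against DC.

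Psmb9, which shares the promoter printed above with Tap1, had values of another pattern. It read 8.54, 8.58, 8.74 and 8.76 in CC, 8.71, 8.94, 8.74 and 8.96 in DC and 8.69, 8.71, 8.96 and 8.68 in RC. Its highest values were on DC 4, RC 3 and DC 2, and the groups overlap. Its log2 difference was 0.18 ± 0.09 for DC against CC (limma adjusted p = 0.26) and 0.10 ± 0.09 for RC against CC (0.759).

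The unequal change of the neighbours was tested after their values had been seen. Tap1's log2 difference minus that of Psmb9 was -0.47 for DC against CC and -0.54 for RC against CC. In both, the within-array differences did not overlap between the groups (exact two-sided permutation test, p = 0.0286, the smallest that 4 arrays against 4 allow). For RC against DC it was -0.07 (exact permutation p = 0.543). Without the 3 arrays of narrowest spread, where Psmb9 was highest, the value for DC against CC was -0.33, still without overlap (exact permutation p = 0.0667, with 2 DC arrays left), and that for RC against CC was -0.47. The pair was picked for its values, and Tap1 alone also separated CC from DC and from RC. These p-values are therefore no independent support for an unequal change. How many gene pairs separate in this way was not counted.

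The other pump and bridge genes moved less. Tap2, the partner subunit of Tap1, read 8.64, 8.64, 8.67 and 8.66 in CC, 8.59, 8.65, 8.74 and 8.66 in DC and 8.54, 8.49, 8.67 and 8.40 in RC. The DC arrays surround the CC arrays, and 3 of the 4 RC arrays lie below all of CC. The 95% interval of its log2 difference was -0.13 to 0.15 for DC against CC and -0.26 to 0.01 for RC against CC (limma adjusted p = 0.944 and 0.603).

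Tapbp, the tapasin gene, read 11.35, 11.36, 11.37 and 11.47 in CC, 11.06, 11.11, 11.46 and 11.42 in DC and 10.98, 11.17, 11.09 and 11.09 in RC. All RC arrays lie below all CC arrays, while the DC arrays split into 2 low and 2 at CC level. Its log2 difference of -0.30 ± 0.09 for RC against CC had an unadjusted p = 0.00575 but did not pass over all rows (limma adjusted p = 0.2). For DC against CC it was -0.12 ± 0.09 (limma adjusted p = 0.416).

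B2m, the light chain gene, read 8.14, 8.19, 8.19 and 8.24 in CC, 8.24, 8.03, 8.37 and 8.24 in DC and 8.56, 8.16, 8.07 and 8.24 in RC. The highest array is RC 1 and the lowest DC 2, and the groups overlap throughout. The 95% interval of its log2 difference was -0.19 to 0.25 for DC against CC, -0.15 to 0.28 for RC against CC, and again -0.19 to 0.25 with RC set against DC.

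The immunoproteasome genes did not pass in any comparison. In CC, DC and RC, Psmb8 averaged 7.05 ± 0.06, 7.16 ± 0.14 and 7.09 ± 0.21 (SD, n = 4), which is under the median over the whole table. Psmb10 read 8.04 ± 0.02, 8.07 ± 0.12 and 8.03 ± 0.11 in the same order. The log2 differences of Psmb8 and Psmb10 for DC against CC were 0.11 (95% interval -0.11 to 0.33) and 0.03 (-0.12 to 0.19), and for RC against CC 0.03 (-0.19 to 0.25) and -0.00 (-0.16 to 0.15). Psmb8 was highest on RC 3, DC 2 and DC 4, as Psmb9 was.

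Each immunoproteasome gene was also set against the constitutive subunit it replaces, as the log2 change of the former minus that of the latter. For DC against CC this was 0.18 for Psmb8 against Psmb5, 0.23 for Psmb9 against Psmb6 and 0.30 for Psmb10 against Psmb7. For RC against DC it was -0.14, -0.16 and -0.39, and for RC against CC 0.05, 0.06 and -0.09. None of the 9 passed (exact two-sided permutation tests, p from 0.0857 to 0.743, adjusted p from 0.6 to 0.743), and arrays overlapped in all. The lowest p, for Psmb10 against Psmb7 in RC against DC, came with log2 changes of -0.04 for Psmb10 and 0.35 ± 0.12 for Psmb7 (limma adjusted p = 0.2).

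The transcription factor genes did not pass either. Irf1, an activator induced by interferon gamma, has 2 rows that read close to the median of all values. In CC, DC and RC the brighter (10385870) averaged 8.16 ± 0.10, 8.20 ± 0.13 and 8.29 ± 0.13 and the other (10376060) 8.06 ± 0.10, 8.14 ± 0.09 and 8.05 ± 0.04 (SD, n = 4). For RC against CC their log2 differences were 0.13 and -0.01, neither of which passed (limma adjusted p = 0.729 and 0.971).

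Nlrc5, the class I transactivator, has 19 rows with means from 5.76 to 10.57, which share the target gene and are not replicates. None passed in any comparison (limma, lowest adjusted p = 0.229 for DC against CC, then 0.483 between RC and DC and 0.567 between RC and CC), and 3, 0 and 0 had an unadjusted p under 0.05. For DC against CC 18 of the 19 lay above 0, with a median log2 difference of 0.19 and a range of -0.01 to 0.29. The brightest row (10574100) read 10.30, 10.17, 10.57 and 10.58 in CC, 10.45, 10.82, 10.59 and 10.88 in DC and 10.51, 10.68, 10.85 and 10.41 in RC.

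The rows of Nlrc5 moved with the spread of the arrays. In 14 of 19 rows (73.7%) the 3 highest arrays were RC 3, DC 4 and DC 2, the 3 of narrowest interquartile range, against 20.1% of all rows and 29.8% of rows with a mean under the median of all values. Of the 19 rows, 9 had such a mean. The brightest row, with a mean of 10.57, was among the 14, and the share among rows above the median was not counted. With each row set to its own mean, the median Nlrc5 row was 0.26, 0.20 and 0.18 above it on these arrays and 0.18 and 0.22 below it on CC 1 and CC 2, the arrays of widest range (values -0.18 and -0.22). When each array's interquartile range entered the fit, the median log2 difference for DC against CC was 0.01, and 11 of 19 rows lay above 0. For RC against CC it went from 0.11 to -0.01. Other settings did not all act alike. For the brightest row, the DC against CC difference was 0.28 in the main fit and 0.05 with the covariate. It was 0.36 with quantile normalization and 0.11 without the 3 narrowest arrays, and none of these passed. The widest arrays are of CC and the narrowest of DC and RC, so the covariate may also take up part of a culture difference. For Nlrc5, array spread and culture condition cannot be told apart here. With the same covariate Erap1 and Tap1 kept their calls, at -0.52 and -0.28 for DC against CC (limma adjusted p = 0.00211 and 0.0415) and -0.42 and -0.43 for RC against CC (0.0212 and 0.0145). Quantile normalization ended the call of Tap1 in DC and that of Erap1 in RC (limma adjusted p = 0.0516 and 0.0512). Leaving out the 3 narrowest arrays ended that of Tap1 in DC (0.0953). The part of array spread in these differences was not tested.

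**Figure D3:**
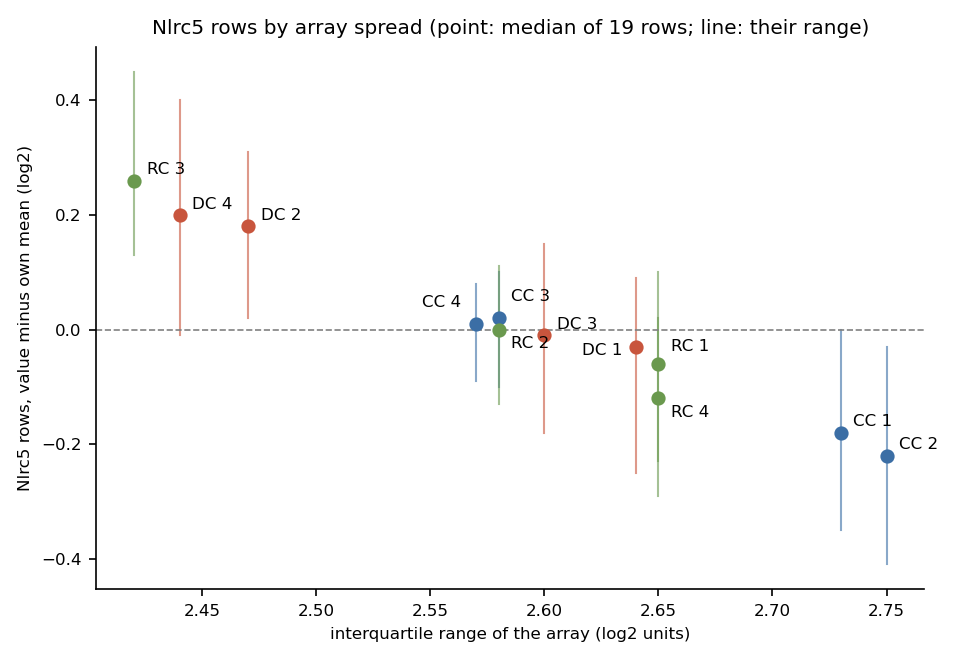
Value of the 19 Nlrc5 rows on each array after each row's own mean is taken off (log2; point: median of the rows, line: their range) against the interquartile range of the array, coloured by condition (CC blue, DC red, RC green). The 3 narrowest arrays, RC 3, DC 4 and DC 2, carry the highest medians (0.26, 0.20 and 0.18), and the widest, CC 1 and CC 2, the lowest.

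Around the members, 7 lists of the class I pathway and its surroundings held 115 genes, of which 95 had a row with 1 symbol. In DC against CC, 6 of them fell and 2 rose. In RC against DC 1 was lower and 1 higher, and in RC against CC 1 was lower and none higher. As shares of the 95, calls came to 8.42%, 2.11% and 1.05%, near the shares of all rows given above (lower and higher, 4.32% and 2.31%, 1.18% and 1.45%, and 0.675% and 0.121%). All rows include those without a symbol, whereas each listed gene stands by its brightest row. The share over the brightest rows of all genes was not counted. The totals rest on the arrays used, as they ran from 4 to 17 for DC against CC and from 1 to 9 for RC against DC with single arrays left out, both highest without RC 3.

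The list of loading chaperones also holds general folding factors and enzymes of the endoplasmic reticulum, among them Prkcsh and Hspa5. All its genes had lower means in DC, and the share of equally bright rows below 0 was not counted. Of 9, 2 fell, and the median log2 difference was -0.21. Prkcsh, a subunit of glucosidase II, fell by 0.52 ± 0.14 (limma adjusted p = 0.0374), and Hspa5, the BiP chaperone, by 0.25 ± 0.06 (0.0315). Both calls ended without any of the 4 CC arrays, DC 2 or RC 1, and that of Hspa5 also without DC 3 or DC 4 (adjusted p up to 0.0914 for Prkcsh and 0.111 for Hspa5). Both also ended when each array's interquartile range entered the fit, as did that of Usp18 below, and further that of Prkcsh with CC and DC fitted alone and that of Hspa5 without the 3 narrowest arrays. The calreticulin gene Calr was at -0.21 ± 0.07, the calnexin gene Canx at -0.17 ± 0.06 and Pdia3 at -0.30 ± 0.11, none of which passed (0.127, 0.143 and 0.133). In RC against CC none of the 9 passed, with 3 at an unadjusted p under 0.05 and a median of -0.14.

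Among 10 measured peptidases and related genes of the cytosol and endoplasmic reticulum, Npepps, a cytosolic aminopeptidase, rose and Erp44 and Blmh fell in DC. In CC, DC and RC, Npepps averaged 10.42 ± 0.07, 10.82 ± 0.15 and 10.42 ± 0.08 (SD, n = 4). It rose by 0.40 ± 0.08 on the log2 scale in DC (limma adjusted p = 0.00802) and fell by 0.40 ± 0.08 from DC to RC (limma adjusted p = 0.0166). The latter call ended when DC 2 or RC 2 was left out, at adjusted p of up to 0.0642, with DC and RC fitted alone and with arrays set to a common median, and the former held with each array left out. Npepps and Erap1, both aminopeptidases, thus differed from CC in opposite directions in DC.

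Erp44, a retention factor of the early secretory pathway that binds Erap1, fell by 0.60 ± 0.13 in DC (limma adjusted p = 0.0118). Its means in CC, DC and RC were 11.23 ± 0.11, 10.63 ± 0.27 and 11.09 ± 0.17 (SD, n = 4). Its call held with each array left out. Blmh, a cytosolic peptidase, fell by 0.41 ± 0.11 (limma adjusted p = 0.0479), and with single arrays left out it passed for DC 1 and RC 3 alone, the others giving an adjusted p of up to 0.157. It also ended with CC and DC fitted alone, with a common median and without the 3 narrowest arrays. No gene of this list passed in RC against CC, where 1 had an unadjusted p under 0.05.

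Of 26 measured regulators upstream of the pathway, 1 fell and 1 rose in DC, and the median log2 difference was -0.02. Ifnar2, a subunit of the type I interferon receptor, fell by 0.56 ± 0.12 (limma adjusted p = 0.0109), with means of 10.76 ± 0.12, 10.20 ± 0.21 and 10.38 ± 0.19 in CC, DC and RC (SD, n = 4), a call that held with each array left out. It was at -0.38 ± 0.12 for RC against CC, which did not pass (0.216). Ifnar1, the other subunit, was at -0.27 ± 0.08 in both DC and RC against CC without passing (0.075 and 0.196). Stat2, which carries the signal of that receptor, rose by 0.32 ± 0.07 in DC (limma adjusted p = 0.0175), a call that ended without CC 3 or CC 4 (up to 0.0561) and with a common median. For RC against DC and RC against CC no regulator passed, with 3 and 7 at an unadjusted p under 0.05.

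Of 23 measured interferon-stimulated genes, 1 fell in DC and none rose, with a median log2 difference of 0.08. Usp18, a brake on interferon signalling, fell by 0.29 ± 0.07 (limma adjusted p = 0.0262, and up to 0.0947 without CC 1, CC 2, DC 2 or DC 3, where the call ended, as it did without the 3 narrowest arrays). Rtp4 was higher in RC than in DC by 0.63 ± 0.10 (limma adjusted p = 0.00494). Its means in CC, DC and RC were 7.77 ± 0.06, 7.50 ± 0.22 and 8.14 ± 0.14 (SD, n = 4), and it kept its call with each array left out. Ifi35 was at -0.28 ± 0.06 for RC against CC (limma adjusted p = 0.0486), and with single arrays left out this passed only without RC 4 (up to 0.163 otherwise). It also ended with CC and RC fitted alone, with trend and robust variance and without the 3 narrowest arrays.

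Class I heavy chains and their relatives did not pass in any comparison. A row with 1 symbol was found for 9 of 19 listed, and none for H2-K1 and H2-D1. For DC against CC 8 of the 9 lay above 0, with a median log2 difference of 0.10, and 0 had an unadjusted p under 0.05 (limma). H2-Q4 had the lowest p for RC against CC, at -0.28 ± 0.08 (limma adjusted p = 0.184), and the MHC-like gene Mr1 for RC against DC, at -0.33 ± 0.10 (0.117). Of 9 class II genes, 8 lay above 0 for DC against CC, with a median of 0.14, and none passed (1 at an unadjusted p under 0.05). H2-DMa, the exception, was at -0.16 ± 0.06 (limma adjusted p = 0.141). The median over all rows was 0.045, and the share of all rows above 0 was not counted. Whether array spread bears on the counts of heavy chain and class II genes above 0 was not tested. Apart from H2-Q4 and H2-Eb1, with CC means of 8.53 and 8.13, the genes of both lists averaged under the median of all values (7.99). Detection calls were not used, so whether these dim genes were expressed was not tested. Among the constitutive subunits and proteasome activators, 0 of 9 passed in any comparison, and the interferon-inducible activator genes Psme1 and Psme2 were at 0.11 ± 0.07 and 0.14 ± 0.09 in DC (limma adjusted p = 0.368 and 0.352).

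**Figure D4:**
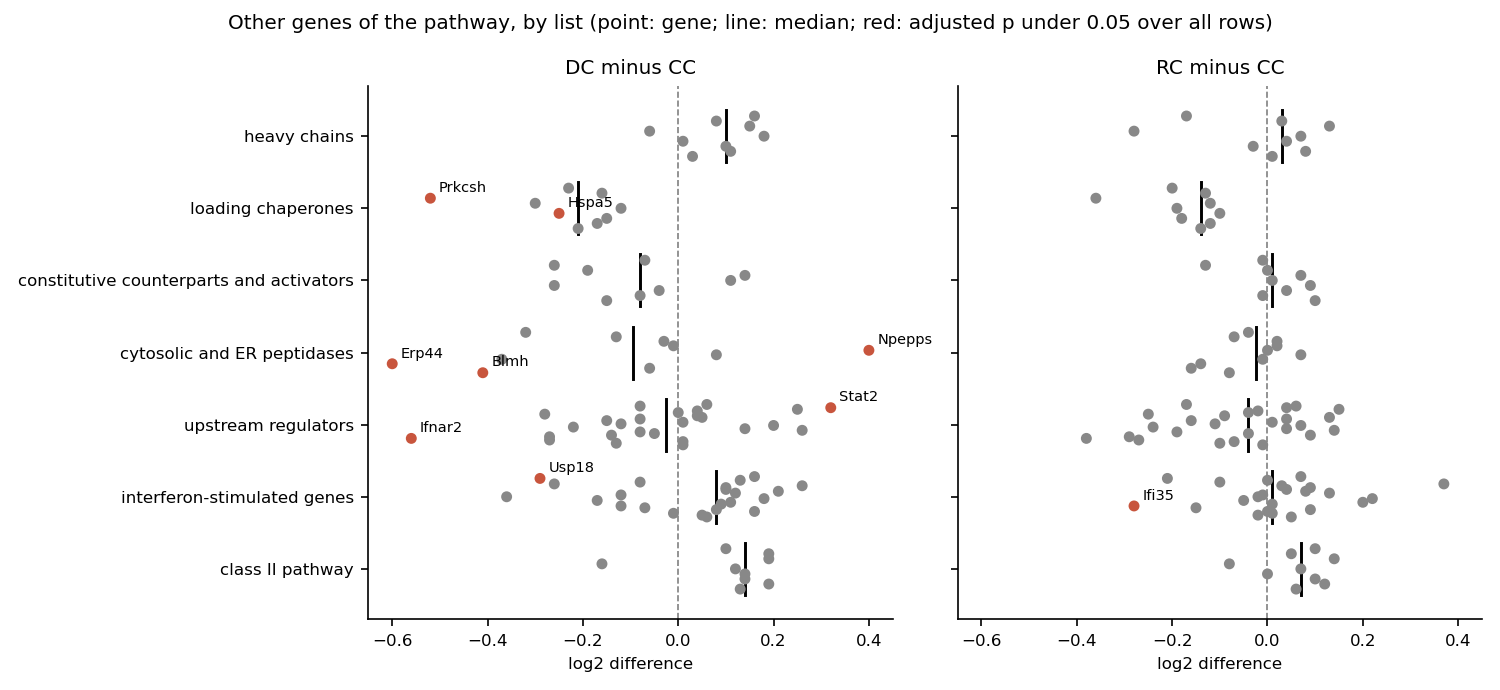
Log2 difference from CC of each other gene of the pathway (point) in DC (left) and RC (right), by list, with the list's median as a line and genes with an adjusted p under 0.05 over all rows in red and named. The loading chaperones lie to the left of 0 in both panels (medians -0.21 and -0.14), and Npepps and Stat2 are the named genes to the right of it in DC.

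The rows most like the called members were sought as those with the smallest root mean squared distance over the 12 arrays after each row was set to its own mean. Nearest to Erap1 were Dpy19l1 (distance 0.0562), with log2 differences of -0.69 in DC and -0.52 in RC against CC, Ncam2 (0.0731) and Gramd3 (0.0822). Nearest to Tap1 were Olfml2b (0.0577), at -0.32 and -0.50, Cntnap5b (0.067) and Pomt2 (0.0675). None of the other members was among them.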

How the data were processed

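The values used are the authors' deposited log2 expression values of 35556 probe sets on 12 Affymetrix arrays. The log2 scale was read from their range (3.69 to 14.47). The authors' software, genome build and between-array normalization were not given in the sources used here. Detection calls and scan dates were not used here either. A dim row therefore has no background to be read against, and precision rests on there being 4 arrays a group. Rows were named through the platform annotation (21789 rows with 1 symbol, 1621 with several, 12146 with none).

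With limma 3.58.1 a linear model (a mean for each condition) in R 4.3.3 took in every row and all 12 arrays (9 residual degrees of freedom, two-sided, Benjamini-Hochberg adjustment over all rows of a comparison, threshold 0.05), after a check on simulated data. Errors of differences are moderated SEs and errors of levels SDs. Titles gave conditions and replicate numbers, and equal numbers are not stated to be paired cultures. The members and lists were chosen with earlier results of these data known. Named from the lists were up to 4 called genes with the largest difference, or the 2 of lowest p, per list and comparison, together with the counterparts of the immunoproteasome subunits and the 3 rows nearest to each called member (1-symbol rows, 1 per gene, without predicted, clone-named, microRNA, small nucleolar and olfactory receptor genes). Other list genes (Calr, Canx, Pdia3, Ifnar1, Psme1, Psme2) were chosen after their values were seen. For a gene with several rows, lists used the brightest. Erp44 is no peptidase and was listed with the enzymes as a binding partner of Erap1.

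Alternatives were a replicate block, fits of the 2 groups alone, quantile or median scaling, the interquartile range as a covariate, no dim rows, array weights, trend and robust variance, 1-symbol rows only, and arrays left out.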

Additional observations from a re-analysis of the deposited data

Results flagged for a closer look

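In 4 of 87 groups of 4 arrays (29 member rows in 3 conditions) 1 array lay far from the other 3 by Dixon's criterion, the gap to its neighbour over the group's range. Chance flags about 1 in 20 groups, which is close to this share. Irf1 (10376060) in RC read 7.99 on RC 4 and 8.07 on the other 3 (ratio 1.0). Psmb9 in RC read 8.96 on RC 3 and 8.68 to 8.71 on the others (0.861). Tapbp in CC read 11.47 on CC 4 and 11.35 to 11.37 on the others (0.858). A row of Nlrc5 (10574137) in RC read 8.13 on RC 3 and 7.99 to 8.01 on the others (0.833).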

How the results depend on the processing

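Against a main count of 2 member rows, DC against CC gave 1 with the replicate block, with quantile normalization and without the 3 arrays of narrowest spread, and 1 to 2 with single arrays left out. RC against CC, also 2, gave 0 with the replicate block, 1 with only the 2 groups compared and with quantile normalization, 4 with array weights, and 0 to 2 with single arrays left out. RC against DC, at 0, gave 5 with array weights and 0 to 1 with single arrays left out. The rows added by array weights were those of Tap2 and Tapbp for RC against CC, and Tap2, Erap1 and 3 of Nlrc5 for RC against DC. Over 1884 member values under alternatives, 27 lost a call, 8 gained one and 0 changed sign with a call. Another 120 changed sign without a call on either side.

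Genes called in the pathway lists went from 8 for DC against CC to 4 with the replicate block, 22 with array weights, 5 without the 3 narrowest arrays and 4 to 17 with single arrays left out. From 2 for RC against DC they went to 1 with the replicate block, with the 2 groups alone and with a common median, 5 with quantile normalization, 7 with the interquartile range as a covariate, 19 with array weights, 4 with 1-symbol rows only and 1 to 9 with single arrays left out. From 1 for RC against CC they went to 0 with the replicate block, with the 2 groups alone, with trend and robust variance and without the 3 narrowest arrays, 10 with array weights and 0 to 1 with single arrays left out. What set these counts apart was not tested. Deviations of equally numbered arrays correlated from -0.358 to 0.473, and those of unequally numbered arrays from -0.449 to 0.526. These deviations also hold differences in array spread, so they cannot settle whether equal numbers mark paired cultures. The replicate block ended the calls of Tap1 in DC and RC against CC (limma adjusted p = 0.0707 and 0.0739) and of Erap1 in RC against CC (0.0917), and kept that of Erap1 in DC (0.00475). In the lists it ended those of Prkcsh, Hspa5, Blmh, Stat2, Ifi35 and, for RC against DC, Npepps. The 9 subunit comparisons made no call with the replicate block either. Every row of Irf1 and Nlrc5 was fitted on its own.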
